A study of Mus musculus with 10 samples.

Results

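Glycolysis, the cytosolic breakdown of glucose to pyruvate, was followed through 10 genes that encode alternative forms of its enzymes: Hk1 and Hk2 (hexokinase), Pfkl, Pfkm and Pfkp (phosphofructokinase), Aldoa and Aldoc (aldolase), Eno2 (enolase), and Ldha and Ldhb (lactate dehydrogenase). They were chosen by gene name as representatives of 5 isozyme families. All 10 were found, of 37447 genes in the deposited expression table. RNA was sequenced from microglia, the resident immune cells of the brain, of the mouse brainstem at 6 weeks of age. Microglia expressing GFP were cut from sections by laser capture microdissection (LCM_GFP, n = 4, labelled 3 female and 1 male). Microglia expressing GFP were also flow sorted from dissociated tissue (FACS_GFP, n = 3, labelled 2 female and 1 male), as were wild-type microglia of the strain C57BL/6 (FACS_WT, n = 3, all labelled male). The labels used here name neither the GFP allele nor its promoter, and give no strain for the GFP mice. Laser-captured tissue was briefly fixed in paraformaldehyde and its RNA was taken with proteinase K and acid phenol, whereas sorted cells were enriched on a Percoll gradient and extracted with TRIzol. The effects of capture, fixation and extraction therefore cannot be told apart.

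Each step named here can be carried out by more than 1 isozyme, and the forms differ by tissue. Hexokinase traps glucose in the cell as glucose 6-phosphate, phosphofructokinase makes the committed step, aldolase splits the sugar, enolase makes phosphoenolpyruvate, and lactate dehydrogenase interconverts pyruvate and lactate. Hk1 is the main hexokinase of brain, Hk2 that of muscle and fat and an inducible form in myeloid cells, Aldoc the brain aldolase, found in astrocytes and cerebellar Purkinje cells, and Eno2 the neuron-specific enolase.

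Values are FPKM, a fragment count divided by transcript length and by library size, and levels of different genes are compared on this per-length scale. Log2 changes are differences in log2(FPKM + 1), which understate the change of genes with low FPKM, and a gene was called changed at a limma adjusted p under 0.05. The microglial marker list (15 genes such as Cx3cr1, P2ry12 and Tmem119) summed to 2449 to 5679.9 FPKM in LCM_GFP libraries, 8039 to 10015 FPKM in FACS_GFP libraries and 9423 to 11899.6 FPKM in FACS_WT libraries, and no marker was listed at 0 in any library. In the laser-captured libraries, 9 of the 15 fell against FACS_GFP, where 19.6% of all genes tested fell and 12.5% rose. Against FACS_WT 13 of the 15 fell, where 19.1% of all genes tested fell and 12.3% rose. Between the sorted groups, 1 of the 15 was called lower in FACS_GFP, as were 0.0762% of all genes tested. Cx3cr1 was at 64.6 to 72.5 FPKM in FACS_GFP and 123 to 146 FPKM in FACS_WT. In LCM_GFP, markers of other brain cells went the other way from the microglial markers. The 15 neuron markers summed to 1226 to 2841 FPKM in LCM_GFP, 3.55 to 12.2 FPKM in FACS_GFP and 2.10 to 2.98 FPKM in FACS_WT, and 14 of 15 rose in LCM_GFP against either sorted group. The 14 astrocyte markers summed to 997 to 1491.5 FPKM in LCM_GFP, 414 to 451 FPKM in FACS_GFP and 347 to 439 FPKM in FACS_WT, and 11 of 14 rose. Their median was 27.1 to 57.3 FPKM in the LCM_GFP libraries and 0.0924 to 0.234 FPKM in the sorted libraries. Glul was at 268 to 467 FPKM in LCM_GFP and 323 to 419 FPKM in sorted libraries, and Slc1a3 at 8.14 to 46.9 and 19.4 to 30.5 FPKM. The 12 oligodendrocyte markers summed to 1885 to 5816 FPKM in LCM_GFP, 219 to 254 FPKM in FACS_GFP and 252 to 431 FPKM in FACS_WT, and 10 of 12 rose. The 8 endothelium markers summed to 81.4 to 213 FPKM in LCM_GFP, 18.7 to 24.2 FPKM in FACS_GFP and 14.0 to 21.8 FPKM in FACS_WT, and 6 of the 7 tested rose. Only 2 of the 15 neuron and 4 of the 14 astrocyte markers reached 1 FPKM in at least 3 sorted libraries. The same held for 4 of the 12 oligodendrocyte markers and 1 of the 8 endothelium markers. The other tested markers of these lists entered the tests only through the laser-captured libraries, which left little room for a fall. Laser-captured libraries 1 and 3 stood apart, with 7 erythroid genes summing to 3560 and 1772 FPKM against 24.1 and 0.449 FPKM in libraries 2 and 4, and with cell cycle genes at 649.9 and 116 against 18.2 and 17.1 FPKM. The embryonic globins Hbb-y, Hbb-bh1 and Hba-x were at 902, 646 and 1853 FPKM in library 1 and at 439, 626 and 660 FPKM in library 3. The adult globins Hbb-b1 and Hba-a1 were at 0 and 151 FPKM in library 1 and at 1.23 and 41.5 FPKM in library 3. The source of these transcripts was not tested. Libraries 1 and 3 are both labelled female, yet Kdm5d, a Y chromosome gene, was at 3.26 FPKM in library 1 and 5.96 FPKM in library 3. In these bulk samples, fewer cells of a type and less RNA per cell cannot be told apart.

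Against FACS_GFP, 4 of the 10 isozyme genes rose in LCM_GFP (Aldoc, Eno2, Pfkp and Pfkm) and 1 fell (Hk2), while Hk1, Pfkl, Aldoa, Ldha and Ldhb did not pass the test. In mean FPKM, Aldoc was 828 times, Eno2 145 times, Pfkp 119.8 times and Pfkm 9.02 times as high in LCM_GFP as in FACS_GFP, and Hk2 was 4.62-fold lower. Among all 13403 genes tested, 32.1% were called, 12.5% higher and 19.6% lower. The same 4 and 1 genes were called against FACS_WT, where 31.4% of 13415 genes tested were called, 12.3% higher and 19.1% lower. An unadjusted p under 0.05 was found for 6 of the 10 in either comparison, as for 44.9% of all genes tested against FACS_GFP and 44.3% against FACS_WT. Every laser-captured library lay above every FACS_GFP library for 5 of the 10 genes (17.0% of all genes tested) and below for 2 (31.2%), and against FACS_WT for 4 (16.9%) and 2 (29.6%). These 2 comparisons share the laser-captured libraries. The median log2 change of the 10 genes was 0.68 against FACS_GFP and 0.51 against FACS_WT, and that of all genes tested was −0.60 and −0.59. Median ratio scaling brought the all-gene medians to −0.12 and −0.11, and the all-gene calls against FACS_GFP then stood at 1856 higher and 1252 lower, where values as deposited gave 1681 and 2624. With that scaling Aldoa also rose against both sorted groups, and Hk2 was no longer called against FACS_GFP, so that 5 isozyme genes were higher and 0 lower. Aldoc and Pfkp were under 1 FPKM in every sorted library and so entered these tests only through the laser-captured libraries.

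**Figure D1:**
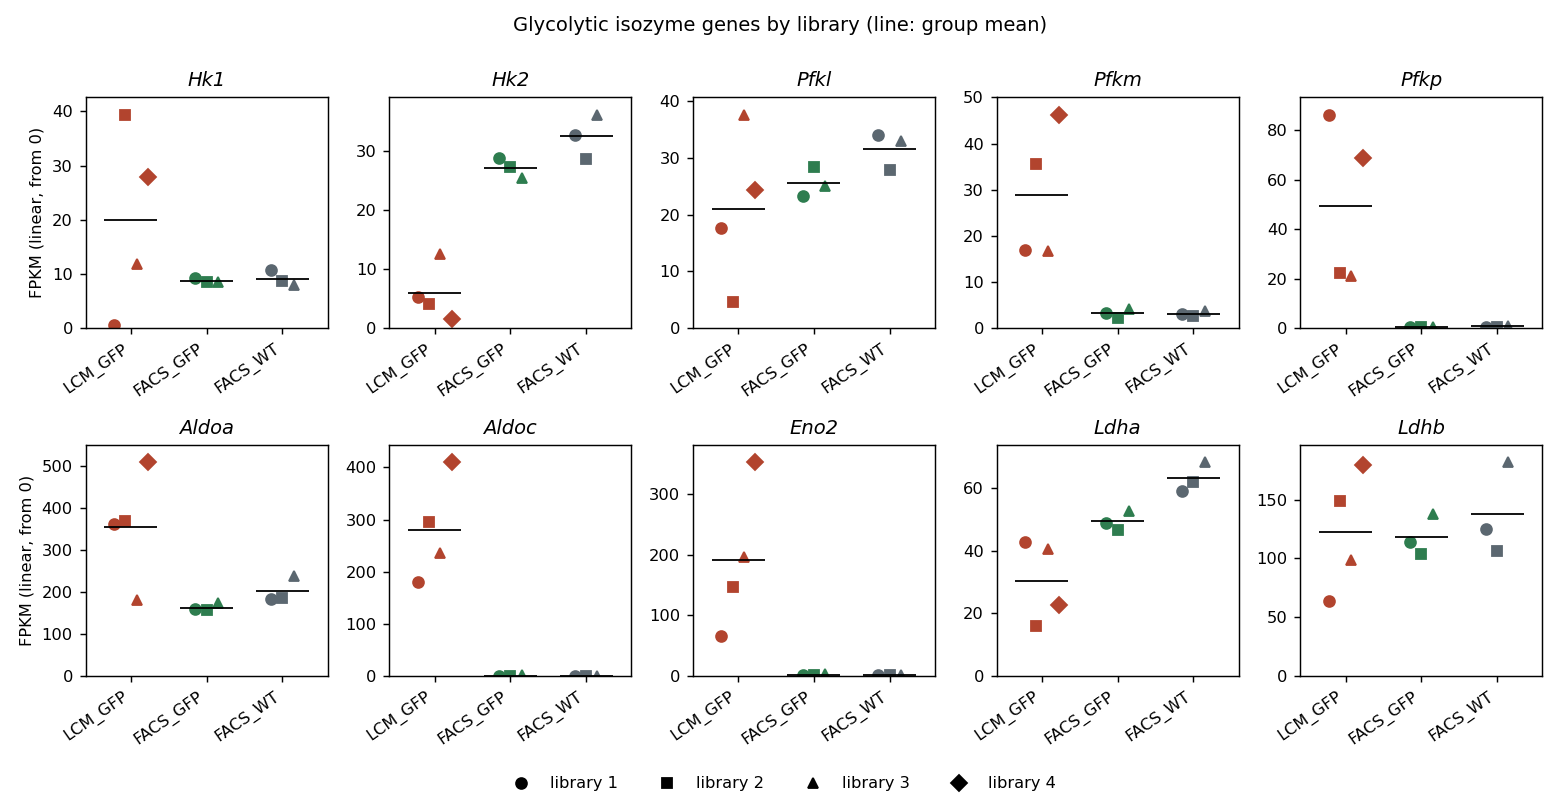
FPKM of the 10 isozyme genes on linear axes from 0, with 1 point per library (shape gives the library number) for LCM_GFP (n = 4), FACS_GFP (n = 3) and FACS_WT (n = 3), and a line at each group mean. Aldoc, Eno2, Pfkp and Pfkm lie above all sorted libraries in every laser-captured library and Hk2 lies below them, while Hk1 spans 0.507 to 39.3 FPKM in LCM_GFP.

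**Figure D2:**
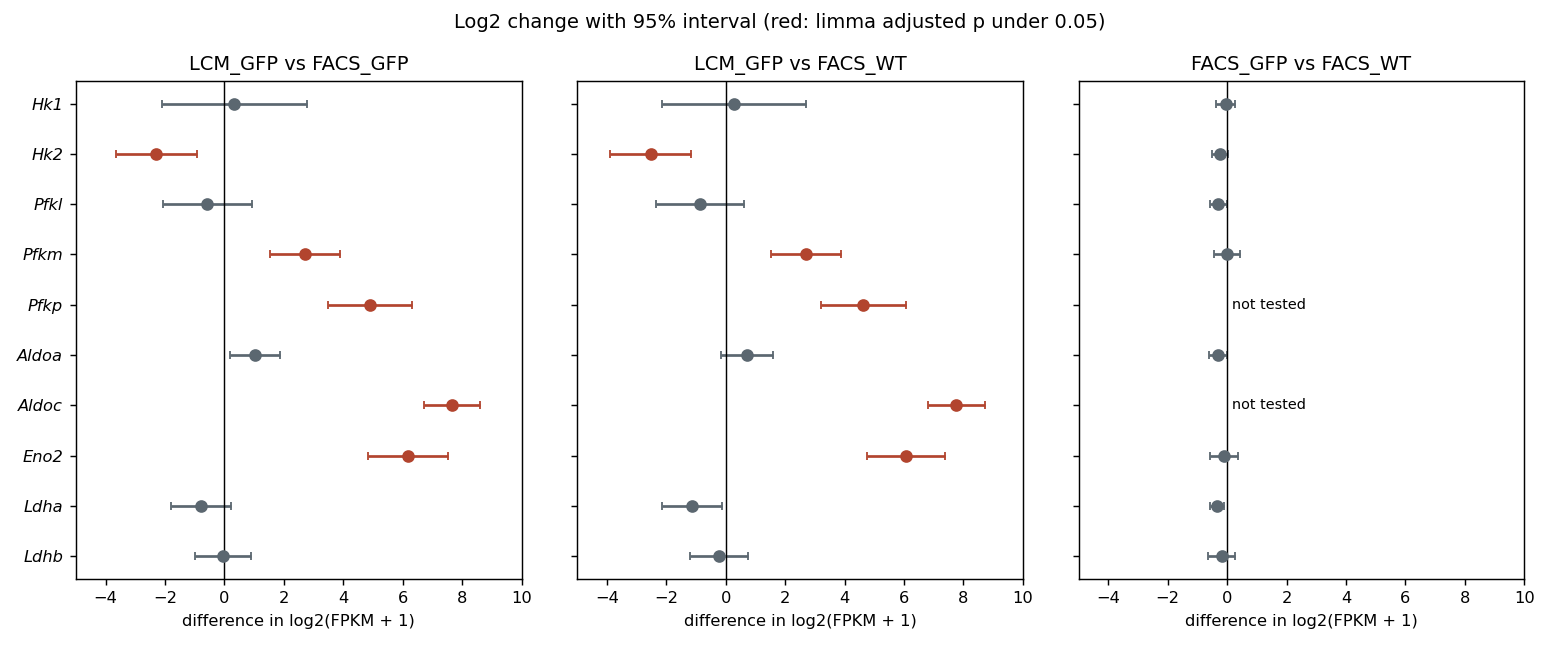
Log2 change of each isozyme gene with its 95% interval from limma, in LCM_GFP against FACS_GFP, LCM_GFP against FACS_WT, and FACS_GFP against FACS_WT. Red marks an adjusted p under 0.05. Aldoc shows the highest change (7.66 and 7.76) and Hk2 the lowest (−2.29 and −2.53), and no gene is marked between the sorted groups.

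Promoters of 4 of the 5 changed genes are shown here, 3 of genes that rose and that of Hk2, which fell. Pfkm had 4 windows, at separate starts, and is given by its counts. Several glycolytic genes are textbook targets of the hypoxia-inducible factor, whose binding core is ACGTG or GCGTG. RefSeq windows of 300 bases (250 before to 50 after a transcript start, build GRCm38.p6, which differs from the mm9 build of the deposited values) were matched for all 10 genes, as 18 windows. Capitals mark ACGTG or GCGTG on either strand, so that CACGT and CACGC are the same cores read on the other strand. ACGTG overlaps the E-box CACGTG. Each sequence is given 5′ to 3′ on the gene's own strand, for Aldoc (chr11:78322823-78323122, plus strand, the first of its windows), Eno2 (chr6:124769624-124769923, minus strand), Pfkp (chr13:6648722-6649021, minus strand) and Hk2 (chr6:82774405-82774704, minus strand).
Aldoc: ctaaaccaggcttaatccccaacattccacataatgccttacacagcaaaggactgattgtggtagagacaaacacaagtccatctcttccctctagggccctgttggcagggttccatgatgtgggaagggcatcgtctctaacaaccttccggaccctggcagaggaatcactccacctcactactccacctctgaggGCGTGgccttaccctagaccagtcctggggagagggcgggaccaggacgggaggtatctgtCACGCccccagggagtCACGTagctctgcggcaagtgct
Eno2: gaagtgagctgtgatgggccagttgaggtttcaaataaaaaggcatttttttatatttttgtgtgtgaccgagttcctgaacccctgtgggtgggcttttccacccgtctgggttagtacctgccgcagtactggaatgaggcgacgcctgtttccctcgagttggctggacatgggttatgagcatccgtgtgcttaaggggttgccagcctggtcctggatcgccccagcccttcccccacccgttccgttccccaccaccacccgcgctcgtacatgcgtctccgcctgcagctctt
Pfkp: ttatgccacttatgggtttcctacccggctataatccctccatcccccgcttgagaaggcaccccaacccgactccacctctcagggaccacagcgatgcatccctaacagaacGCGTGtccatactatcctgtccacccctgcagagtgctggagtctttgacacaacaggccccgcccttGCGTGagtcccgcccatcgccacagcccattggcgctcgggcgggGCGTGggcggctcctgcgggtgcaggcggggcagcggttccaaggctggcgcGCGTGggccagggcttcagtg
Hk2: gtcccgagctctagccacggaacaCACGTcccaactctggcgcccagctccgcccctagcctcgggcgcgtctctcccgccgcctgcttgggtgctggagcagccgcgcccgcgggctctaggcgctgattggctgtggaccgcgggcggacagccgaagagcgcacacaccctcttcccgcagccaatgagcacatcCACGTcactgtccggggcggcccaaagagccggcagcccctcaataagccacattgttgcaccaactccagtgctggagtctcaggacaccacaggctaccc
The Aldoc window held 1 ACGTG and 2 GCGTG cores, that of Pfkp 4 GCGTG cores and that of Hk2 2 ACGTG cores. Of the 4 Pfkm windows, 3 held at least 1 core. No core was present in the Eno2 window, so the 3 isozyme genes with the highest log2 changes did not share these letters. Of the 18 windows, 14 (77.8%) held at least 1 core, in 9 of the 10 genes, and the first window of Ldha, which did not pass the test, held 5 ACGTG and 2 GCGTG cores. Over all 32851 RefSeq windows of the same length, 43.8% held a core, 19.6% ACGTG, 32.4% GCGTG and 7.15% CACGTG. The isozyme windows had 36.7% to 67.3% G and C bases, against a median of 52.7% over all windows. Windows of 1 gene can overlap, and a match is a run of letters and not a site shown to be bound.

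Aldolase showed the widest difference. Aldoc (ENSMUSG00000017390, mm9 chromosome 11, 78136470 to 78141283) had 179, 295, 235 and 409.7 FPKM in the LCM_GFP libraries, against 0.139, 0.286 and 0.589 FPKM in FACS_GFP and 0.367, 0.140 and 0.206 FPKM in FACS_WT. The lowest laser-captured library was still far above the highest sorted one. Aldoc rose by 7.66 on the log2 scale against FACS_GFP (SE 0.41, limma adjusted p = 4.52e-05) and by 7.76 against FACS_WT (SE 0.41, limma adjusted p = 3.20e-05). Aldoa, the aldolase of muscle and of most other tissues (ENSMUSG00000030695, mm9 chromosome 7, 133938748 to 133944265), had 361, 368, 181 and 508 FPKM in LCM_GFP, against 158, 156 and 173.5 FPKM in FACS_GFP and 184, 184 and 238 FPKM in FACS_WT. Laser-captured library 3 was the lowest of its group, above all FACS_GFP libraries and below all FACS_WT libraries. The log2 change of Aldoa was 1.03 against FACS_GFP (95% interval 0.18 to 1.88, limma adjusted p = 0.0650) and 0.73 against FACS_WT (−0.15 to 1.60, limma adjusted p = 0.176). Without laser-captured library 3, Aldoa passed the test in both comparisons (limma adjusted p = 0.0100 and 0.0340).

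Aldoc took from 33.2% to 56.5% of the summed level of the 2 aldolases in laser-captured libraries and at most 0.338% in sorted ones. Of the summed FPKM of Aldoa and Aldoc, Aldoc made 33.2%, 44.5%, 56.5% and 44.6% in the LCM_GFP libraries, against 0.0878% to 0.338% in FACS_GFP and 0.0761% to 0.199% in FACS_WT. Aldoa made 99.7% to 99.9% of this sum in all 6 sorted libraries. The sum of both was 416 to 918 FPKM in LCM_GFP, 156 to 174 FPKM in FACS_GFP and 184 to 239 FPKM in FACS_WT. These totals did not overlap between LCM_GFP and either sorted group.

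Enolase followed the same order. Eno2 (ENSMUSG00000004267, mm9 chromosome 6, 124710071 to 124719691) had 66.1, 147, 197 and 353 FPKM in LCM_GFP, against 0.866, 1.02 and 2.05 FPKM in FACS_GFP and 1.56, 1.20 and 1.47 FPKM in FACS_WT. The groups were far apart, and the lowest laser-captured library was still 66.1 FPKM. Eno2 rose by 6.17 on the log2 scale against FACS_GFP (SE 0.59, limma adjusted p = 0.000352) and by 6.08 against FACS_WT (SE 0.57, limma adjusted p = 0.000342). The enolase of most tissues, Eno1, had 799, 253, 385 and 331 FPKM in LCM_GFP, against 181, 169.5 and 212 FPKM in FACS_GFP and 183, 166 and 217 FPKM in FACS_WT. Its groups did not overlap, yet its log2 change of 1.10 against FACS_GFP did not pass the test (95% interval 0.17 to 2.02, limma adjusted p = 0.0687). Eno1 did pass against FACS_GFP with median ratio scaling, quantile normalization or without laser-captured library 1 or 2 (limma adjusted p = 0.0271 to 0.0376), and likewise against FACS_WT (0.0284 to 0.0465). Eno3, the muscle enolase, had 41.0, 1.08, 11.8 and 0.915 FPKM in LCM_GFP, 19.1 to 28.8 FPKM in FACS_GFP and 20.1 to 24.8 FPKM in FACS_WT. Eno2 made 7.29%, 36.7%, 33.2% and 51.6% of enolase FPKM in LCM_GFP, against 0.429% to 0.880% in FACS_GFP and 0.606% to 0.744% in FACS_WT.

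Among the sorted libraries, FACS_GFP library 3 was the highest in both Aldoc (0.589 FPKM) and Eno2 (2.05 FPKM). It was also the highest in summed neuron markers, at 12.2 FPKM against 5.44 and 3.55 FPKM in the other FACS_GFP libraries, of which the synaptic gene Snap25 gave 6.77 FPKM. Not all sorted libraries kept this order. FACS_GFP library 1, with a neuron sum of 5.44 FPKM, was the lowest sorted library in Aldoc (0.139 FPKM) and Eno2 (0.866 FPKM). FACS_WT library 1 had the lowest neuron sum (2.10 FPKM). Its Aldoc (0.367 FPKM) and Eno2 (1.56 FPKM) were above those of every sorted library except FACS_GFP library 3. In LCM_GFP, library 4 was the highest in Aldoc, Eno2 and Pfkm and also in summed neuron (2841 FPKM) and astrocyte markers (1491 FPKM), and library 1 was the lowest in Aldoc, Eno2 and the neuron sum (1226 FPKM). The astrocyte sum was lowest in LCM_GFP library 3 (997 FPKM), and Pfkp was highest in library 1 (86.3 FPKM). The oligodendrocyte sum was highest in LCM_GFP library 2 (5816 FPKM, against 3277 FPKM in library 4) and lowest in library 1 (1885 FPKM). The endothelium sum was highest in LCM_GFP library 1 (213 FPKM, against 201 FPKM in library 4) and lowest in library 2 (81.4 FPKM). The part of RNA from neurons, astrocytes, oligodendrocytes and endothelium in these values was not tested.

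**Figure D3:**
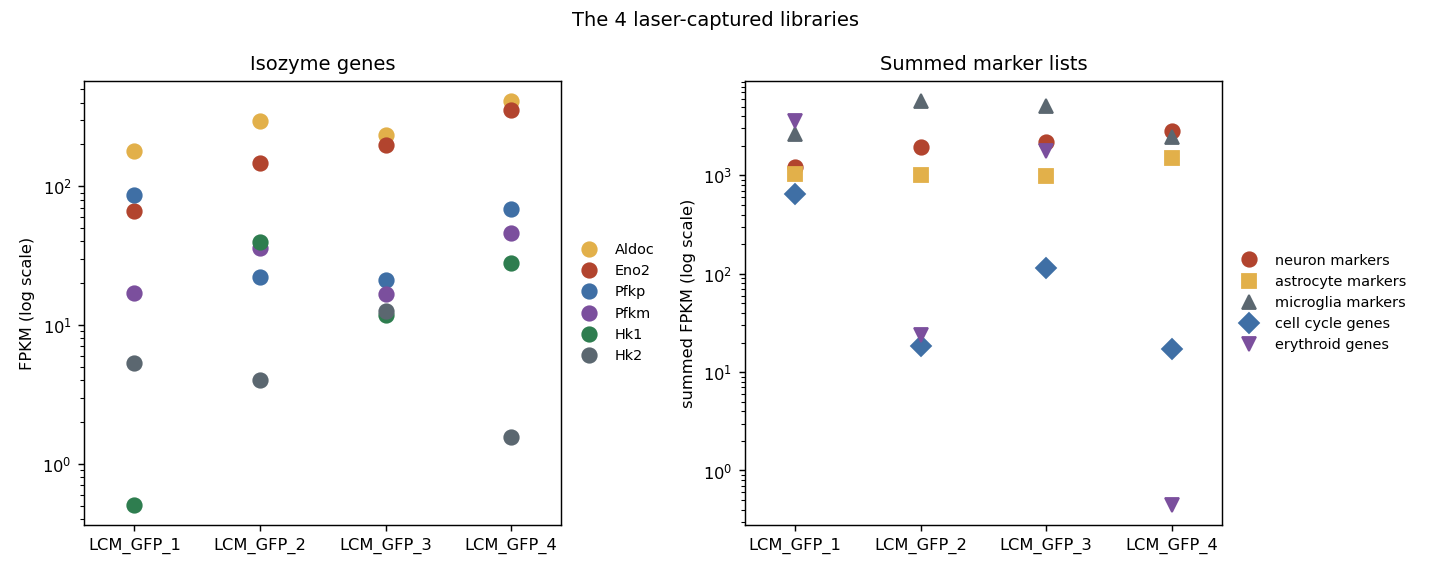
The 4 laser-captured libraries on log axes: left, FPKM of Aldoc, Eno2, Pfkp, Pfkm, Hk1 and Hk2, and right, summed FPKM of neuron, astrocyte, microglia, cell cycle and erythroid lists. Library 4 has the highest Aldoc (409.7 FPKM), Eno2 (353 FPKM) and neuron sum (2841 FPKM), and library 1 has the highest Pfkp (86.3 FPKM), cell cycle sum (649.9 FPKM) and erythroid sum (3560 FPKM).

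Phosphofructokinase, built from liver-type (Pfkl), muscle-type (Pfkm) and platelet-type (Pfkp) subunits, changed in 2 of its 3 genes. Pfkp (ENSMUSG00000021196, mm9 chromosome 13, 6579014 to 6648023) had 86.3, 22.1, 21.1 and 68.8 FPKM in LCM_GFP, against 0.494, 0.363 and 0.385 FPKM in FACS_GFP and 0.638, 0.508 and 0.960 FPKM in FACS_WT. No sorted library reached 1 FPKM. Pfkp rose by 4.89 on the log2 scale against FACS_GFP (SE 0.61, limma adjusted p = 0.000920) and by 4.63 against FACS_WT (SE 0.62, limma adjusted p = 0.00122). Its locus shares 372 bases with Pitrm1, a mitochondrial peptidase gene that was also highest in laser-captured library 1 (161 FPKM, against 11.3 to 35.2 FPKM in the other 9 libraries), and reads in that stretch cannot be assigned to either gene with certainty.

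Pfkm (ENSMUSG00000033065, mm9 chromosome 15, 97923020 to 97962878) had 16.9, 35.6, 16.7 and 46.2 FPKM in LCM_GFP, against 3.21, 2.28 and 4.11 FPKM in FACS_GFP and 3.17, 2.64 and 3.75 FPKM in FACS_WT. Libraries 2 and 4 were the higher pair, and all 4 exceeded every sorted library. The log2 change was 2.72 against FACS_GFP (SE 0.51, limma adjusted p = 0.00590) and 2.71 against FACS_WT (SE 0.51, limma adjusted p = 0.00567). The call against FACS_GFP was lost without FACS_GFP library 2 (limma adjusted p = 0.0544, log2 change 2.55). Pfkm shares 817 bases with Senp1, a SUMO protease gene, which was at 31.0, 28.2, 2.54 and 5.97 FPKM in LCM_GFP and at 12.8 to 15.0 FPKM in the sorted libraries.

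Pfkl (ENSMUSG00000020277, mm9 chromosome 10, 77449692 to 77472828) had 17.6, 4.60, 37.6 and 24.3 FPKM in LCM_GFP, against 23.3, 28.4 and 25.1 FPKM in FACS_GFP and 34.0, 27.9 and 33.0 FPKM in FACS_WT. The laser-captured values fell on both sides of the sorted ones. Its log2 change of −0.57 against FACS_GFP did not pass the test (95% interval −2.08 to 0.93, limma adjusted p = 0.528), nor did that of −0.86 against FACS_WT (−2.36 to 0.63, limma adjusted p = 0.338). Within the family, Pfkl made 14.6%, 7.39%, 49.9% and 17.4% of FPKM in LCM_GFP, against 84.8% to 91.5% in FACS_GFP and 87.5% to 89.9% in FACS_WT. Pfkp was the leading form in laser-captured libraries 1 and 4 (71.4% and 49.4%), Pfkm in library 2 (57.1%) and Pfkl in library 3. The summed phosphofructokinase level was 62.3 to 139 FPKM in LCM_GFP, 27.0 to 31.1 FPKM in FACS_GFP and 31.0 to 37.8 FPKM in FACS_WT.

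Hexokinase was the family in which an isozyme fell. Hk2 (ENSMUSG00000000628, mm9 chromosome 6, 82675019 to 82724448) had 5.33, 4.03, 12.6 and 1.57 FPKM in LCM_GFP, against 28.8, 27.4 and 25.4 FPKM in FACS_GFP and 32.8, 28.7 and 36.1 FPKM in FACS_WT. The highest laser-captured library had less than any sorted library. Hk2 fell, with a log2 change of −2.29 against FACS_GFP (SE 0.59, limma adjusted p = 0.0220) and of −2.53 against FACS_WT (SE 0.60, limma adjusted p = 0.0151). These calls were lost when any 1 of the 3 libraries of the sorted group was left out, with limma adjusted p of 0.102 to 0.112 against FACS_GFP and 0.0736 to 0.0896 against FACS_WT, and the log2 change stayed between −2.62 and −2.24. In the same libraries the summed microglial markers were 2449 to 5679.9 FPKM in LCM_GFP and 8039 to 10015 FPKM in FACS_GFP, and the part of this in the Hk2 level was not tested.

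Hk1 (ENSMUSG00000037012, mm9 chromosome 10, 61731603 to 61842656) had 0.507, 39.3, 11.8 and 27.9 FPKM in LCM_GFP, against 9.23, 8.50 and 8.48 FPKM in FACS_GFP and 10.7, 8.74 and 7.88 FPKM in FACS_WT. Library 1 lay below all sorted libraries and the other 3 above them. The locus shares 23112 bases with the gene 2210417K05Rik, which was at 11.3, 1.41, 1.08 and 0 FPKM in LCM_GFP and listed at 0 in every sorted library. The log2 change was 0.33 against FACS_GFP (95% interval −2.11 to 2.77, limma adjusted p = 0.831) and 0.29 against FACS_WT (−2.14 to 2.71, limma adjusted p = 0.858). With laser-captured libraries 2 and 4 only, it was 1.81 and 1.77 and passed the test (limma adjusted p = 0.00594 and 0.00948). Hk3, a hexokinase of blood and immune cells, had 0.311, 15.3, 9.06 and 3.54 FPKM in LCM_GFP, against 17.8 to 18.5 FPKM in FACS_GFP and 17.1 to 25.4 FPKM in FACS_WT, and did not pass the test (log2 change −1.78 against FACS_GFP, limma adjusted p = 0.134). Hk2 was 10.5, 0.102, 1.07 and 0.0561 times Hk1 in LCM_GFP, against 2.99 to 3.22 times in FACS_GFP and 3.06 to 4.58 times in FACS_WT. Hk2 exceeded Hk1 in all 6 sorted libraries, and in laser-captured libraries 1 and 3 but not 2 and 4. Summed hexokinase was 6.26, 58.7, 33.5 and 39.5 FPKM in LCM_GFP, 52.3 to 56.6 FPKM in FACS_GFP and 54.6 to 69.5 FPKM in FACS_WT.

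Lactate dehydrogenase, at the end of the pathway, passed the test in neither gene with all libraries. Ldha, the form that favours lactate production (ENSMUSG00000063229, mm9 chromosome 7, 54096845 to 54110997), had 42.8, 15.8, 40.5 and 22.7 FPKM in LCM_GFP, against 48.7, 46.8 and 52.8 FPKM in FACS_GFP and 59.1, 61.9 and 68.2 FPKM in FACS_WT. All laser-captured libraries were below all sorted ones. Its log2 change was −0.79 against FACS_GFP (95% interval −1.79 to 0.21, limma adjusted p = 0.195) and −1.13 against FACS_WT (−2.14 to −0.13, limma adjusted p = 0.0797). Without laser-captured library 1, Ldha passed the test against FACS_WT (log2 change −1.33, limma adjusted p = 0.0331). With laser-captured libraries 2 and 4 only, it was called lower against FACS_GFP (−1.34, limma adjusted p = 0.0116) and against FACS_WT (−1.68, limma adjusted p = 0.00732). Ldhb, the heart-type form (ENSMUSG00000030246, mm9 chromosome 6, 142438769 to 142456477), had 63.8, 149, 99.0 and 179.5 FPKM in LCM_GFP, against 114, 104 and 138 FPKM in FACS_GFP and 125, 106 and 182 FPKM in FACS_WT. The groups overlapped. Its log2 change of −0.05 against FACS_GFP had a 95% interval of −0.98 to 0.88 (limma adjusted p = 0.940) and turned to 0.50 with median ratio scaling and 0.17 with quantile normalization. Ldhb exceeded Ldha in every library, by 1.49, 9.46, 2.45 and 7.89 times in LCM_GFP, 2.22 to 2.62 times in FACS_GFP and 1.72 to 2.66 times in FACS_WT.

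**Figure D4:**
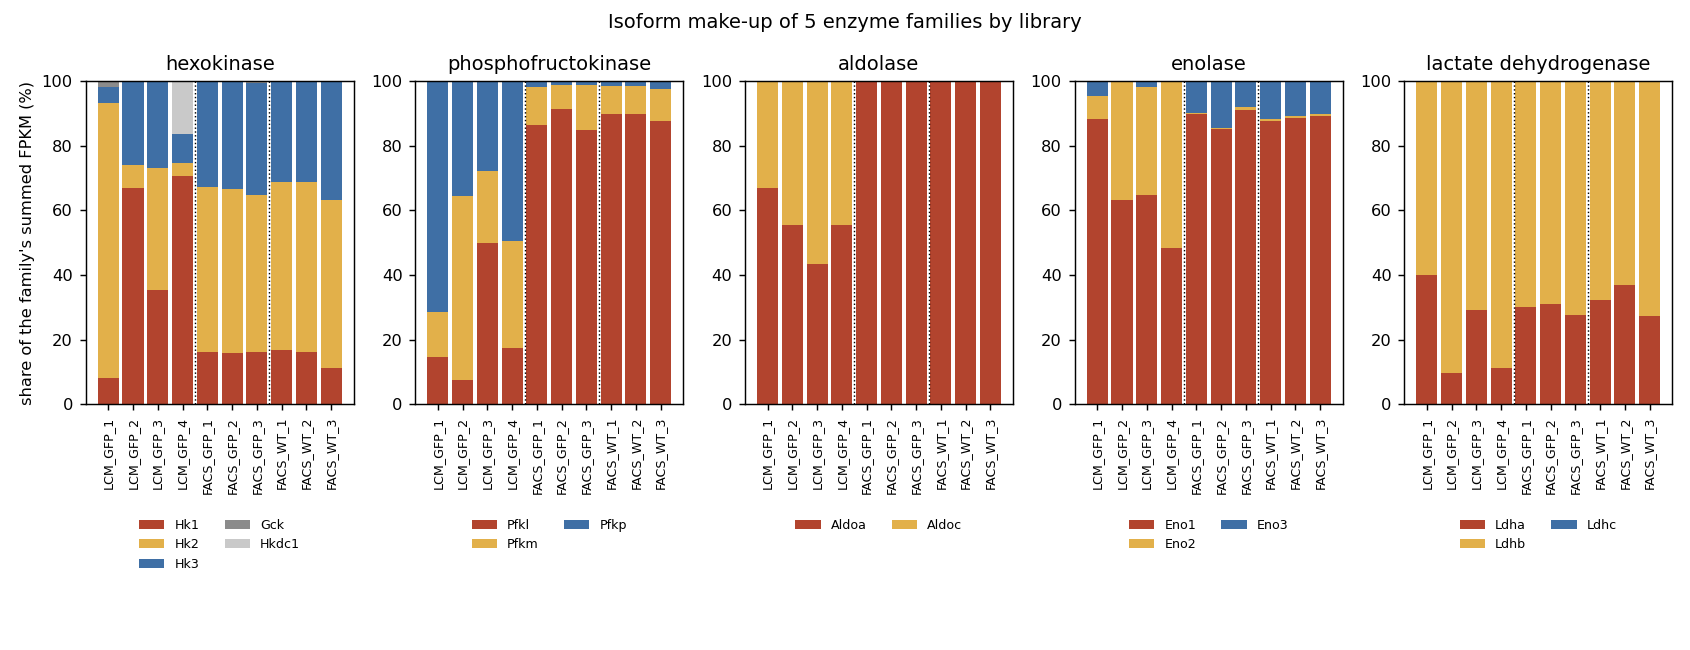
Share of each isozyme in the summed FPKM of its family, in percent, as stacked bars for the 10 libraries, with dotted lines between LCM_GFP, FACS_GFP and FACS_WT. The 6 sorted libraries look alike in every family, with Aldoa at 99.7% or more of summed Aldoa and Aldoc and Pfkl at 84.8% or more of phosphofructokinase, whereas the laser-captured libraries differ among themselves. Of these, libraries 2 and 4 are close in Aldoc (44.5% and 44.6%), Hk1 (67.0% and 70.7%) and Ldhb (90.4% and 88.8%). They are farther apart in Pfkm (57.1% and 33.2%) and Eno2 (36.7% and 51.6%).

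The isozyme shares were compared with 1 gene per family by an exact two-sided permutation test, adjusted over the 5 families. The isozyme genes were chosen with earlier results of these data known, and the aldolase sum after its values were seen. The p-values therefore only describe how far the groups lie apart. All sorted libraries means FACS_GFP and FACS_WT together, which differ in GFP and in labelled sex. A share does not depend on the scaling between libraries. The mean share of Aldoc was 44.7 ± 9.53% in LCM_GFP and 0.162 ± 0.102% in all sorted libraries (SD, n = 4 and 6), a difference of 44.6 percentage points (exact p = 0.00952, adjusted p = 0.0159). Eno2 averaged 32.2 ± 18.4% in LCM_GFP and 0.635 ± 0.162% in sorted libraries (SD, n = 4 and 6), 31.5 points apart with the same exact p and adjusted p. Pfkm averaged 31.6 ± 18.7% in LCM_GFP and 9.99 ± 2.48% in sorted libraries (SD, n = 4 and 6), 21.6 points apart, again with the same values of p. This p is the smallest that 4 against 6 libraries can give. For Pfkm the lowest LCM_GFP share (13.99%) lay only just above the highest sorted share (13.90%). As a log2 ratio to the rest of its family, Pfkm had an exact permutation p of 0.0190 (adjusted p = 0.0317). The share of Hk1 was 45.3 ± 29.5% in LCM_GFP and 15.4 ± 2.03% in sorted libraries (SD, n = 4 and 6) and did not pass (exact p = 0.0667, adjusted p = 0.0833), but did so without laser-captured library 1 (42.2 points, adjusted p = 0.0298). For Ldhb the shares were 77.5 ± 14.7% and 69.2 ± 3.49% (SD, n = 4 and 6; exact p = 0.229). Against FACS_GFP alone, 4 against 3 libraries cannot give an exact p under 0.0571. Aldoc, Eno2 and Pfkm reached this value, and with an adjusted permutation p of 0.0952 each they did not pass.

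Between the sorted groups no isozyme gene was called in FACS_GFP against FACS_WT. Of the 10, 8 could be tested, since Pfkp and Aldoc stayed under 1 FPKM in all 6 libraries. The background was low as well: limma called 13 of 11814 genes (0.11%), of which 4 higher (0.0339%) and 9 lower (0.0762%), and 2 of the 8 isozyme genes had an unadjusted p under 0.05, as did 13.1% of all genes. These were Ldha, with a log2 change of −0.35 (95% interval −0.59 to −0.10, limma adjusted p = 0.286), and Pfkl, with −0.29 (−0.58 to −0.01, limma adjusted p = 0.371). Ldha and Aldoa were lower in every FACS_GFP library than in any FACS_WT library, which 9.29% of all genes tested showed, and no isozyme gene was higher in every FACS_GFP library (11.5% of all genes tested). Pfkp, outside the test, was also lower in every FACS_GFP library. Aldoa had a log2 change of −0.30 (limma adjusted p = 0.382), Hk2 of −0.25 (0.423), Ldhb of −0.19 (0.693) and Eno2, Hk1 and Pfkm of −0.09, −0.05 and −0.01. All 8 estimates were below 0, with a median of −0.22 against 0.001 over all genes tested. FACS_WT libraries were all labelled male and FACS_GFP libraries were labelled as both sexes, and no isozyme gene was called with labelled sex as a covariate. With that term only the FACS_GFP library labelled male informs the group difference, so this result cannot separate sex from group. FACS_GFP library 2 held both Xist (3.91 FPKM) and the Y chromosome gene Kdm5d (23.0 FPKM). Isozyme shares differed by 2.52 points or less in these groups, with exact p of 0.4 to 0.8, where 3 against 3 libraries cannot go below 0.1.

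Ordered by mean level, LCM_GFP ran Aldoa (354 FPKM), Aldoc (279.8 FPKM), Eno2 (191 FPKM), Ldhb (123 FPKM), Pfkp (49.6 FPKM), Ldha (30.4 FPKM), Pfkm (28.9 FPKM), Pfkl (21.0 FPKM), Hk1 (19.9 FPKM) and Hk2 (5.89 FPKM). All 9 pairs of neighbours in that order overlapped in their libraries, so the order within LCM_GFP is not resolved beyond the spread. FACS_GFP ran Aldoa (162 FPKM), Ldhb (119 FPKM), Ldha (49.4 FPKM), Hk2 (27.2 FPKM), Pfkl (25.6 FPKM), Hk1 (8.74 FPKM), Pfkm (3.20 FPKM), Eno2 (1.31 FPKM), Pfkp (0.414 FPKM) and Aldoc (0.338 FPKM). There 2 of 9 pairs overlapped, Hk2 with Pfkl and Pfkp with Aldoc. FACS_WT had the same order, and Hk2 with Pfkl was its 1 overlapping pair. The mean of the highest gene was 60.2 times that of the lowest in LCM_GFP, 481 times in FACS_GFP and 851 times in FACS_WT. The median SD of these genes on the log2 scale was 0.86 in LCM_GFP, 0.11 in FACS_GFP and 0.18 in FACS_WT, close to the 0.95, 0.13 and 0.17 of all 13820 expressed genes. Hk1 had the widest spread in LCM_GFP, with an SD of 2.13.

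The remaining enzymes of the pathway were measured as a list of 18 genes, of which 11 passed the filter on low values. Over all genes tested, 12.5% rose and 19.6% fell against FACS_GFP, with a median log2 change of −0.60. In the list 3 rose and 0 fell against FACS_GFP, with a median log2 change of 1.10. The number higher was 6 with median ratio scaling or with laser-captured libraries 2 and 4 only, and 5 with quantile normalization or without laser-captured library 1 or 3. It was 0 without any 1 FACS_GFP library. In the replicate block, without laser-captured library 1 or 4 and with libraries 2 and 4 only, 1 gene was called lower. Pgam1, a phosphoglycerate mutase, rose to 34.5, 39.9, 19.5 and 18.4 FPKM in LCM_GFP, against 4.64, 3.84 and 6.34 FPKM in FACS_GFP (log2 change 2.24, limma adjusted p = 0.00823), and was also called against FACS_WT (1.93, limma adjusted p = 0.0194). Pgk1, phosphoglycerate kinase, had a log2 change of 1.70 (limma adjusted p = 0.0293) and Gpi1, glucose phosphate isomerase, of 1.29 (limma adjusted p = 0.0258), and neither was called against FACS_WT (limma adjusted p = 0.0867 and 0.0827). All 3 calls against FACS_GFP were lost when any 1 FACS_GFP library was left out (limma adjusted p = 0.0524 to 0.133), that of Pgk1 also without laser-captured library 2 (0.0504) and that of Gpi1 also when libraries were rescaled to an equal sum (0.0561). The call of Pgam1 against FACS_WT was lost without any 1 FACS_WT library (limma adjusted p = 0.0629 to 0.120). Pgam1 and Pgk1 have near-identical pseudogene copies, so their counts are uncertain. The handling of multimapping reads is not known, so the same limit may hold for other enzymes named here. Gapdh, the most abundant enzyme of the list, was at 4762, 2711, 2838 and 3325 FPKM in LCM_GFP, against 2765, 2349 and 2913 FPKM in FACS_GFP, with a log2 change of 0.32 that did not pass the test (limma adjusted p = 0.340). The pyruvate kinase gene listed as Pkm2, whose value covers all transcripts of the gene and so both of its muscle-type forms, was at 152, 84.8, 40.3 and 85.5 FPKM in LCM_GFP, against 34.4, 31.8 and 33.7 FPKM in FACS_GFP (log2 change 1.27, limma adjusted p = 0.0651).

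No carrier of glucose or lactate was called higher, although 1 was against FACS_GFP with median ratio scaling, with quantile normalization, without laser-captured library 1, without library 2 and with libraries 2 and 4 only. Of 10 listed, 7 were tested and 2 fell in LCM_GFP against both sorted groups, with a median log2 change of −0.12 against FACS_GFP. The all-gene median there was −0.60, and 19.6% of all genes tested fell against FACS_GFP and 19.1% against FACS_WT. Slc2a5, a fructose transporter and microglial gene, fell to 27.9, 78.0, 217 and 22.1 FPKM in LCM_GFP, against 478, 439 and 545 FPKM in FACS_GFP (log2 change −3.06, limma adjusted p = 0.0165), a call lost without any 1 FACS_GFP library (limma adjusted p = 0.0590 to 0.0701) or, against FACS_WT, any 1 FACS_WT library (0.0599 to 0.0720). Slc16a7, a monocarboxylate transporter, fell to 1.99, 0.733, 0.562 and 2.86 FPKM in LCM_GFP, against 21.5, 22.6 and 21.3 FPKM in FACS_GFP (log2 change −3.27, limma adjusted p = 0.00190). Slc2a1, the glucose transporter of brain endothelium and glia, was at 174, 42.6, 94.1 and 216 FPKM in LCM_GFP, against 44.6 to 49.4 FPKM in FACS_GFP, and did not pass the test (log2 change 1.23, limma adjusted p = 0.123). Slc16a3, a lactate exporter of glycolytic cells, was at 1.21, 0.498, 14.0 and 4.69 FPKM in LCM_GFP, against 17.0 to 17.3 FPKM in FACS_GFP (log2 change −2.15, limma adjusted p = 0.0694).

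Of 15 regulators of glycolysis, 12 were tested against FACS_GFP, where 12.5% of all genes tested rose and 19.6% fell. Of these 12 regulators 1 rose and 4 fell, with a median log2 change of −0.39, against −0.60 over all genes tested. Among the genes that fell, 3 encode the bifunctional enzymes that set fructose 2,6-bisphosphate, the activator of phosphofructokinase: Pfkfb3 (log2 change −2.28, limma adjusted p = 0.0282), Pfkfb2 (−1.62, 0.0486) and Pfkfb1 (−1.48, 0.0172). Pdk1, a kinase that inactivates pyruvate dehydrogenase, fell to 3.66, 17.9, 35.5 and 11.1 FPKM in LCM_GFP, against 73.8, 69.8 and 78.3 FPKM in FACS_GFP (log2 change −2.42, limma adjusted p = 0.0271). Its relative Pdk2 rose to 130.3, 289, 76.7 and 106 FPKM in LCM_GFP, against 11.7, 13.1 and 10.9 FPKM in FACS_GFP (log2 change 3.37, limma adjusted p = 0.00161). Against FACS_WT the same genes were called except Pfkfb2 (limma adjusted p = 0.0892). The calls of these 4 lower genes were lost when any 1 library of the sorted group was left out (limma adjusted p = 0.0887 to 0.190), those of Pfkfb3 and Pdk1 also without laser-captured library 4 and that of Pfkfb2 also without library 3, and with median ratio scaling none of the 4 was called. Without the filter on low values, Pfkfb2, Pfkfb3 and Pdk1 also lost their calls against FACS_GFP (limma adjusted p = 0.0540 to 0.0655). Of 17 alternatives against FACS_GFP, Pfkfb2 kept its call in 6, Pfkfb3 in 9, Pdk1 in 10 and Pfkfb1 in 13. Of 16 against FACS_WT, Pfkfb3 kept its call in 11, Pdk1 in 8 and Pfkfb1 in 8. Pdk2 kept its call in every alternative that was run, as did Slc16a7. Hif1a, a subunit of the hypoxia-inducible factor, was at 24.7, 87.2, 82.8 and 79.9 FPKM in LCM_GFP, against 45.3, 48.9 and 52.2 FPKM in FACS_GFP, a log2 change of 0.33 that did not pass the test (limma adjusted p = 0.629). Its level was lowest in library 1. Between FACS_GFP and FACS_WT none of the tested enzymes, carriers and regulators was called.

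The genes whose centred log2 profile over the 10 libraries lay nearest to each isozyme gene were read from 13820 genes, as a description with no test, measured as a root mean square log2 difference. Aldoc was nearest to Sparcl1 (0.17), Mtap2 (0.26) and Atp1b1 (0.29), and Eno2 to Cntn1 (0.19) and Car2 (0.23). For Pfkp these were Ehd3 (0.22), Lingo1 (0.22) and Zfhx4 (0.28), and for Pfkm Fam115a (0.16), Fsd1l (0.22) and Apc2 (0.23). Hk2 lay nearest to Dnajc24 (0.23), Trim14 (0.26) and Ncf4 (0.27), and Hk1 to Nkiras1 (0.32), Kcnip3 (0.34) and Lcmt1 (0.37). Pfkl had Klhl11 (0.16), Cpt2 (0.18) and Rfc2 (0.23), Aldoa had Gm15800 (0.13), 5031439G07Rik (0.15) and Uba1 (0.18), Ldha had Pdf (0.12), Usp28 (0.18) and Sptlc1 (0.18), and Ldhb had Bad (0.15), Gm10480 (0.16) and Pdcd7 (0.16). Among the isozyme genes themselves, the closest pairs were Pfkl with Ldha (0.48), Aldoa with Ldhb (0.63) and Ldha with Ldhb (0.82), followed by Hk2 with Ldha (0.84) and Aldoc with Eno2 (0.85). The farthest pair was Aldoc with Hk2 (5.02). Between other forms of the same enzyme, Pfkm and Pfkp differed by 1.22, Hk1 and Hk2 by 1.97, and Aldoa and Aldoc by 3.37.

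The authors' deposited table of comparisons gave Aldoc as the 1 isozyme gene with a q-value under 0.05, at log2 9.23 in LCM_GFP over FACS_GFP (q = 2.77e-10) and 9.81 in LCM_GFP over FACS_WT (q = 6.50e-12). In the authors' deposited table Pfkm stood at 2.76 (q = 0.0987), Eno2 at 6.58 (q = 0.674), Pfkp at 6.59 (q = 1) and Hk2 at −2.73 (q = 0.862) in LCM_GFP over FACS_GFP. The directions were those found here, and the calls of Eno2, Pfkp, Pfkm and Hk2 rest on the limma fit alone.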

How the data were processed

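RNA-seq libraries of 10 mouse brainstem microglia samples in 3 groups were compared, grouped by their labels, which call them biological replicates. Tools named for the deposited FPKM values, per the submitters' processing notes, are Cufflinks 2.0.2, Bowtie2 2.0.0, TopHat2 2.0.4 and CASAVA 1.8.2, with the build mm9. How multimapping reads and strand were handled and how libraries were scaled is not given in the sources used here. The deposited FPKM table and the authors' deposited comparison table, whose log2 fold changes, p-value and q-value columns follow Cuffdiff's layout per the file headers, were used. Depth is unknown, since low FPKM values gave no clear step for 1 fragment, so no counting intervals are given. Zeros can be failed estimates, since 13661 genes are listed at 0 in every library.

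Where 3 or more libraries of a comparison reached 1 FPKM, the gene entered the fit on log2(FPKM + 1), made in limma 3.58.1 (trend, robust, statmod 1.5.0, R 4.3.3), only the 2 groups in a fit, two-sided, with Benjamini-Hochberg adjustment over all genes tested. Each fit took 1 spread per gene, pooled over both of its groups. The fit was checked on simulated data. Shares of family FPKM were compared by exact permutation in Python 3.11.15 (pandas 2.3.3, numpy 2.4.6, scipy 1.17.1, matplotlib 3.10.9). Symbols were found for all 132 genes of the lists, 2 by an earlier name. The isozyme genes and the lists were chosen with earlier results of these data known. Named genes are all 10 isozyme genes, called list members, the 4 most abundant of each list and the 3 nearest profiles of each isozyme gene (1 such gene of Eno2 is not reported here). The aldolase share was taken over Aldoa and Aldoc, a choice made after the values were seen. Alternatives changed the pseudocount, filter, scaling, normalization, variance model, block, sex term, denominator and libraries. Promoter windows are from RefSeq, build GRCm38.p6, and share no coordinates with mm9 values.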

Additional observations from a re-analysis of the deposited data

How the results depend on the processing

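The depth of the libraries is unknown, and the wide spread among the laser-captured libraries limits what could be called. Aldoc, Eno2 and Pfkp kept their direction and call in all alternatives that could be run, with log2 changes against FACS_GFP of 5.67 to 9.39, 4.73 to 6.93 and 3.11 to 6.32. Aldoc and Pfkp could not be fitted with laser-captured libraries 2 and 4 only, since they then failed the filter on low values. In every fit the spread was pooled over both groups, also where 2 laser-captured or 2 sorted libraries remained. The groups were unequal in spread, with a median SD over all expressed genes of 0.95 in LCM_GFP, 0.13 in FACS_GFP and 0.17 in FACS_WT. The limma p-values and intervals against LCM_GFP do not allow for this. The cause of the changes below was not tested.

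The number of isozyme genes called lower was 0 against FACS_GFP with median ratio scaling and 0 with the replicate block, and 2 against FACS_GFP and 2 against FACS_WT with laser-captured libraries 2 and 4 only. Leaving out 1 library gave 0 to 1 lower against FACS_GFP and 0 to 2 against FACS_WT. Hk2 stood at −1.77 with median ratio scaling (limma adjusted p = 0.0699). With laser-captured libraries 2 and 4 only, the shares against all sorted libraries differed by 35.1 points for Pfkm, 44.4 for Aldoc and 43.5 for Eno2, where the smallest exact permutation p is 0.0714. Leaving out 1 library gave 21.4 to 42.2 points for Hk1 in that comparison, and, between FACS_GFP and FACS_WT, −0.36 to 2.41 points for Hk1 and −0.194 to 0.032 for Eno2.

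Log2 changes that turned round did not pass the test. Ldhb was at 0.50 with median ratio scaling, 0.17 with quantile normalization and 0.47 with laser-captured libraries 2 and 4 only against FACS_GFP, and at 0.31 with median ratio scaling and 0.28 with those 2 libraries against FACS_WT. Leaving out 1 library gave Hk1 −0.24 to 1.34 and Ldhb −0.26 to 0.23 against FACS_GFP, and Hk1 −0.29 to 1.29 and Ldhb −0.45 to 0.044 against FACS_WT. Between FACS_GFP and FACS_WT it gave Hk1 −0.13 to 0.065, Pfkm −0.16 to 0.16, Eno2 −0.31 to 0.046, Ldhb −0.35 to 0.032, Eno1 −0.097 to 0.099 and Slc16a7 −0.021 to 0.089. There Slc2a5 was at −0.013 and Pfkfb1 at −0.0045 with labelled sex as a covariate, and Slc16a7 at −0.0086 when libraries were rescaled to a sum of 1000000.

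Same-numbered libraries had correlations of −0.0286 to 0.00635 in LCM_GFP with FACS_GFP and −0.0401 to −0.00202 in LCM_GFP with FACS_WT. In FACS_GFP with FACS_WT these were 0.141, 0.0102 and 0.214 for replicates 1, 2 and 3. Such values cannot decide whether replicate numbers pair the samples, and the main fits used no replicate block. With the replicate block Hk1 was at −0.082 against FACS_GFP and −0.13 against FACS_WT, and Hk2 at −1.90 against FACS_GFP (limma adjusted p = 0.0689), the one call of an isozyme gene that changed. Of the other listed genes, Gpi1, Pfkfb2 and Pfkfb3 against FACS_GFP and Pgam1 and Pdk1 against FACS_WT were not called with the block (limma adjusted p = 0.0563 to 0.114).

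Over all genes, calls against FACS_GFP fell to 738 to 758 higher and 304 to 329 lower without 1 FACS_GFP library, against 1681 and 2624 with all, and to 763 to 776 higher and 326 to 384 lower against FACS_WT without 1 FACS_WT library. Laser-captured libraries 2 and 4 only gave 901 higher and 4084 lower against FACS_GFP. Between FACS_GFP and FACS_WT the alternatives gave 2 to 10 genes higher and 2 to 12 lower.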

Other observations

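Other genes of these lists stood out in some laser-captured libraries and not in others. Hkdc1, a hexokinase-like gene, was at 6.47 FPKM in laser-captured library 4 and at most 0.00711 FPKM in the other 9 libraries, and made 16.4% of hexokinase FPKM in laser-captured library 4. Pklr, the pyruvate kinase of liver and red blood cells, was at 17.4, 0.0177, 2.23 and 0.0117 FPKM in LCM_GFP libraries 1 to 4 and at most 0.00751 FPKM in sorted libraries, and the 2 libraries with the higher values were those with erythroid genes at 3560 and 1772 FPKM. Slc2a4, the insulin-responsive glucose transporter, was at 1.77, 17.8, 0.0115 and 0 FPKM in LCM_GFP and listed at 0 in all sorted libraries. Pdk4, a pyruvate dehydrogenase kinase, was at 0.00814, 0.608, 1.88 and 4.17 FPKM in LCM_GFP and at most 0.109 FPKM in sorted libraries. These genes did not pass the filter on low values and were chosen after their values were seen.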
